A study of Mus musculus with 3 samples.

Results

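The Toll-like receptors and their adaptor Myd88 were examined in mouse brown adipose tissue with and without the kinase LKB1. The set held 10 genes, namely Tlr1, Tlr2, Tlr3, Tlr4, Tlr6, Tlr7, Tlr8, Tlr9, Tlr13 and Myd88, of 21154 gene symbols on the array. A gene's probes were all non-control probes whose accession in the scanner files was a RefSeq transcript of that gene, which gave 12 probes. On each of 3 two-colour Agilent arrays, RNA of whole brown adipose tissue from an Ad-Lkb1 mouse, labelled with the dye Cy5, was hybridised with RNA from a wild-type (WT) littermate, labelled with Cy3. All mice were males of 10 weeks on a chow diet. The strain is given as C57BL/6J for Ad-Lkb1 mice and as C57BL/6 for WT mice, and the dyes were not swapped, so genotype, dye and strain name cannot be told apart. The promoter and cell type behind the Lkb1 deletion are not given in the sources used here. The comparison asks which receptors of the family had more or less RNA in tissue lacking LKB1.

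Toll-like receptors recognise molecular patterns of microbes and of damaged cells. The receptors for lipids, lipopeptides and lipopolysaccharide sit at the cell surface, and those for nucleic acids sit in endosomes, where proteases process several of them. Apart from Tlr3, the receptors pass their signal through the adaptor Myd88 to IRAK kinases, NF-kappaB and interferon regulatory factors. In adipose tissue the family is best known from macrophages and other leukocytes, and adipocytes also carry some of its members.

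Tlr13 was the member gene that rose in Ad-Lkb1 tissue, with a mean log2 ratio of Ad-Lkb1 over WT of 1.37. Tlr2 was on average 1.67-fold higher in Ad-Lkb1 than in WT without passing the test. A single probe of Tlr7, kept through the Ad-Lkb1 channel alone, passed the test while the brightest Tlr7 probe did not. Tlr9 and Myd88 averaged log2 ratios of 0.027 and 0.028, with array-to-array spreads many times as large. Tlr3, Tlr6 and Tlr8 were too dim to be tested. In whole tissue, more cells of a type and more RNA per cell cannot be told apart.

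The gene-level test was limma's moderated test on the log2 ratios of the 3 arrays, with p-values adjusted over 19331 genes and unnamed features by the Benjamini-Hochberg method and a threshold of 0.05. A probe entered when it was well above its background, by the scanner software's flag, on all 3 arrays in at least 1 channel. This kept 8 of the 12 probes and 7 of the 10 genes, and a probe that passed through 1 bright channel alone was more likely to differ between the channels. Of the 7 tested genes, 1 was higher and 0 were lower in Ad-Lkb1, beside 4.77% higher and 3.92% lower, or 8.7% in either direction, among all features tested. At an unadjusted p under 0.05, 3 member genes were higher and 0 lower. Of all 19331 features, 5673 were under this p in either direction, the share beside which the unadjusted counts below stand. The members' median log2 ratio was 0.27, beside -0.0098 over all features. In 5 of the 7 genes the ratio was above 0 on all 3 arrays, as it was for 24% of all features, and in 0 of the 7 it was below 0 on all arrays, beside 27.7% of all features.

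**Figure D1:**
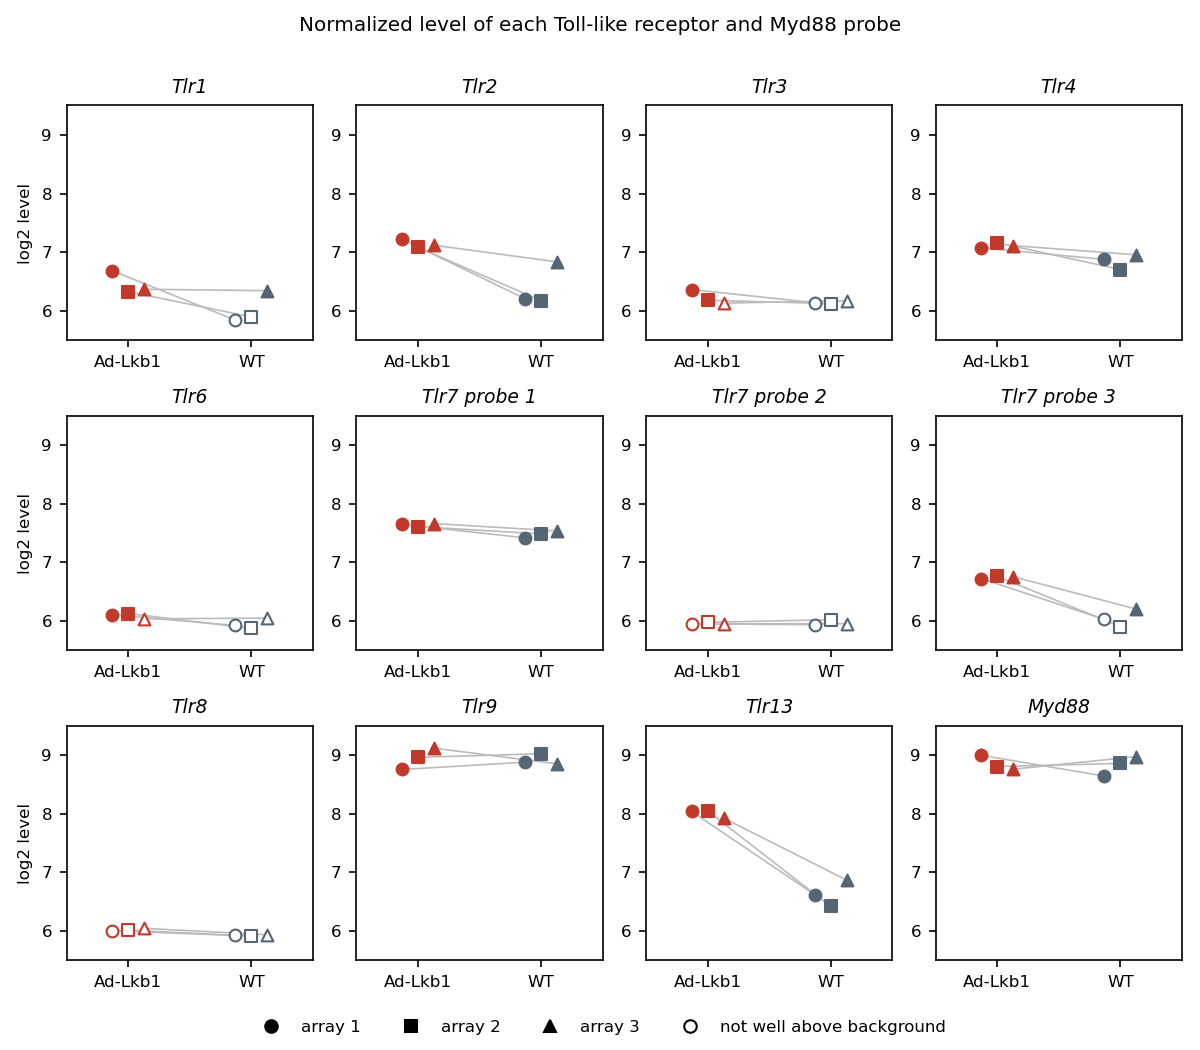
Log2 normalized level of every member probe (y axis) in Ad-Lkb1 and WT tissue (x axis), with a symbol for each array, a line joining the 2 samples of an array, and open symbols where the probe was not well above background. The 3 Tlr13 levels in Ad-Lkb1, between 7.92 and 8.05, lie above the 3 WT levels, between 6.42 and 6.87, while the groups overlap for Tlr9 and Myd88.

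Across the series, the files behaved as follows. Between 47.7% and 51.3% of the array's features were well above background in Ad-Lkb1, and between 46.7% and 46.8% in WT, with 0 saturated spots. Stk11, which encodes LKB1, had a log2 ratio of -1.20 ± 0.056 (SD, n = 3 arrays; limma adjusted p = 0.0105), so the deleted gene was lower in the samples labelled Ad-Lkb1; whether its probe lies in the deleted part is not given in the sources used here. Ucp1, the uncoupling protein that defines brown fat, had mean log2 levels of 16.84 in Ad-Lkb1 and 15.37 in WT. It was called higher, at a log2 ratio of 1.48 ± 0.19 (SD, n = 3 arrays; limma adjusted p = 0.0114). Of 8 brown adipocyte markers 4 were higher and 0 lower, beside 4.77% higher and 3.92% lower among all features. The log ratios of all features correlated between pairs of arrays with r of 0.36 to 0.73, across features that are not independent of each other. Acta1, a skeletal muscle actin, had log2 ratios of -3.17, 3.06 and 4.27 on arrays 1, 2 and 3, and the 4 tested muscle markers had medians of -3.31, 2.35 and 4.08. The part of muscle RNA in the values below was not tested.

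Tlr13 is an endosomal receptor for bacterial ribosomal RNA in mice. Its single probe, from the X chromosome, had log2 levels of 8.04, 8.05 and 7.92 in Ad-Lkb1 on arrays 1 to 3, against 6.62, 6.42 and 6.87 in WT. All 3 Ad-Lkb1 levels lay above all 3 WT levels. Before normalization, the median signal of its spot lay between 139.5 and 162.5 units over a local background of 16 to 17 in the Ad-Lkb1 channel, and between 82 and 129 units over 36 to 44 in the WT channel, and the probe was well above background in both channels on every array. The log2 ratio was 1.42, 1.63 and 1.06 on the 3 arrays, a mean of 1.37 ± 0.29 (SD, n = 3 arrays) or 2.58-fold, with a limma adjusted p of 0.0168. Without array 1 or array 2 the log2 ratio was 1.34 or 1.24 and missed the threshold, with limma adjusted p of 0.142 and 0.0942, in fits that called 0 of all features. Under the scanner software's own background subtraction and dye normalization, without the constant of 50 units that was added to all signals here, the Tlr13 log2 ratio was 2.48.

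The promoters of Tlr13, which rose, and of Tlr9 and Myd88, which did not pass the test, are printed to set their letters side by side. RefSeq promoter sequences of GRCm38.p6 were available for 8 of the 10 genes, with 10 start sites, and not for Tlr4 and Tlr7. Each line below gives the 250 bases upstream of an annotated start, read 5′ to 3′ on the gene's strand: Tlr13 at chrX:106143025-106143274 on the plus strand, Tlr9 at chr9:106222348-106222597 on the plus strand and Myd88 at chr9:119340019-119340268 on the minus strand. Capitals mark a motif match on either strand.
Tlr13: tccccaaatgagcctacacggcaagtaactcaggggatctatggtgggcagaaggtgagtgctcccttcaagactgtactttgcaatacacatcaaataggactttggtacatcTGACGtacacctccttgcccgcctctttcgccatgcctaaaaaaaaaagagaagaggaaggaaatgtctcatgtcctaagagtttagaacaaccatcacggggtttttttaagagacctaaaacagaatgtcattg
Tlr9: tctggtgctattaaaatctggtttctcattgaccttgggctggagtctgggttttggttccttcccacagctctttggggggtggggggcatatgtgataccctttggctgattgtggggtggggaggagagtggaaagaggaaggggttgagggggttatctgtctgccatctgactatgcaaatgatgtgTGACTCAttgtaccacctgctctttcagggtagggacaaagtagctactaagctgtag
Myd88: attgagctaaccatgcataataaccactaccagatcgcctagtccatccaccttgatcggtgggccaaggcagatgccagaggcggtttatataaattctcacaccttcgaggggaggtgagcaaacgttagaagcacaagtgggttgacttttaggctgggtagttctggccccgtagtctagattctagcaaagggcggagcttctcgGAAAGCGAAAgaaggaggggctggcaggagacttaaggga

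The motifs searched on both strands were a PU.1 site (GAGGAAGT), a kappaB site (GGG and TTTCC with 2 free bases between), an interferon-stimulated response element (GAAA and GAAA with 2 free bases between), an ETS-IRF element (GGAA and GAAA with 2 free bases between), a cyclic AMP response element (TGACGTCA) and its core (TGACG), and an AP-1 site (TGANTCA). The ETS core GGAAG, which lies within the PU.1 letters and is not in capitals, was counted too, and TGACG lies within the full cyclic AMP element. Tlr13 held a TGACG from -136 to -132 and a GGAAG from -81 to -77, counted from the start. Tlr9 held an AP-1 match from -58 to -52. Myd88 held an interferon-stimulated element from -40 to -31 and no GGAAG. Over 32817 promoters of the same length, the share with a match was 17.7% for TGACG, 64.1% for GGAAG, 6.75% for the AP-1 letters and 2.97% for the interferon-stimulated element.

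Among the other member promoters, a Tlr1 start had a PU.1 match (2.44% of all promoters), Tlr3 had a kappaB match (1.41%), and a Tlr6 start had 2 overlapping matches to the interferon-stimulated element. Another Tlr6 start had a TGACG. The ETS core was found for Tlr1, Tlr2, Tlr3, Tlr6, Tlr9 and Tlr13. Neither the full cyclic AMP element (1.55% of all promoters) nor the ETS-IRF letters (2.3%) matched a member promoter, and Tlr8 had no match to any of the 8 motifs. These letters are a description of the windows alone.

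At the cell surface, Tlr2 senses bacterial lipoproteins together with Tlr1 or Tlr6. Tlr2, on chromosome 3, had 10 spots of 1 probe on each array. Its log2 levels were 7.23, 7.09 and 7.12 in Ad-Lkb1, against 6.21, 6.18 and 6.84 in WT. The groups did not overlap, but the WT sample of array 3 stood well above the other WT samples. The log2 ratio was 1.02, 0.91 and 0.28 on the 3 arrays, a mean of 0.74 ± 0.40 (SD, n = 3 arrays), with a limma adjusted p of 0.0674. The SD among the 10, 9 and 9 spots used on the arrays was 0.065, 0.10 and 0.069, so the arrays differed by far more than the spots of an array did. Without array 3 the log2 ratio was 0.96 and passed the threshold, with a limma adjusted p of 0.0121. The Tlr2 log2 ratio was 1.24 with an added constant of 10 and 1.78 with the software's own signals, and passed in neither setting, at limma adjusted p of 0.0561 and 0.105.

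Tlr1, a partner of Tlr2, had log2 levels of 6.69, 6.33 and 6.37 in Ad-Lkb1, against 5.85, 5.90 and 6.35 in WT. The groups overlapped, since the WT level of array 3 lay above the Ad-Lkb1 level of array 2. Array 3 was also the single array on which WT signal cleared the background. The log2 ratios were 0.84, 0.43 and 0.024, a mean of 0.43 ± 0.41 (SD, n = 3 arrays; limma adjusted p = 0.183). With the software's own signals the mean Tlr1 log2 ratio was 2.32 and still did not pass, at a limma adjusted p of 0.209.

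Tlr6, the other partner of Tlr2 and the neighbour of Tlr1 on chromosome 5, had log2 levels of 6.11, 6.13 and 6.04 in Ad-Lkb1, against 5.92, 5.87 and 6.05 in WT. It was well above background in Ad-Lkb1 on 2 of 3 arrays and in WT on none, so it was not tested. The groups overlapped through array 3, where neither channel of Tlr6 cleared the background, and no fold change is given. The authors' deposited ratios, turned to log2, were 2.33, 2.50 and -0.27 for the same Tlr6 spot, far from the values of 0.18, 0.25 and -0.011 obtained here. The WT median signals of the Tlr6 spot were 42, 40.5 and 50.5 units over local backgrounds of 45, 47 and 44.5.

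Tlr4, the lipopolysaccharide receptor, lies on chromosome 4 and had 2 spots of 1 probe. Its log2 levels were 7.08, 7.16 and 7.11 in Ad-Lkb1, against 6.88, 6.71 and 6.96 in WT. The Ad-Lkb1 levels lay above the WT levels without overlap, and the largest gap was on array 2. The Tlr4 log2 ratios of 0.20, 0.46 and 0.16 averaged 0.27 ± 0.16 (SD, n = 3 arrays; limma adjusted p = 0.137), which did not pass the threshold. With median centring in place of loess the Tlr4 log2 ratio was -0.086.

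In the endosome, Tlr7 senses single-stranded RNA and lies beside Tlr8 on the X chromosome. The brightest of its 3 probes, A_55_P2050932, had log2 levels of 7.65, 7.61 and 7.66 in Ad-Lkb1, against 7.42, 7.49 and 7.53 in WT. The groups did not overlap, yet the gap was small: the log2 ratios were 0.23, 0.12 and 0.12, a mean of 0.16 ± 0.060 (SD, n = 3 arrays), and the limma adjusted p was 0.219. The second kept probe, A_55_P2129047, which is annotated to the same transcript, had log2 levels of 6.72, 6.76 and 6.76 in Ad-Lkb1, against 6.03, 5.91 and 6.20 in WT. Here too all Ad-Lkb1 levels were above all WT levels, with the WT channel well above background on array 3 alone. Its log2 ratios were 0.70, 0.86 and 0.55, a mean of 0.70 ± 0.15 (SD, n = 3 arrays). The size of this Tlr7 ratio depended on the background treatment, at 1.37 when the added constant was 10 and 2.77 with the software's own signals.

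When each kept probe was tested as a row of its own, A_55_P2129047 had a limma adjusted p of 0.0249 and A_55_P2050932 one of 0.212. At this level 2 of the 8 kept member probes were higher in Ad-Lkb1, those of Tlr13 and Tlr7, and 0 were lower, beside 4.73% higher and 4% lower among 25034 kept probes. A_55_P2129047 was kept through the Ad-Lkb1 channel alone, the channel in which it was then called higher. With both channels required above background it was not tested, and 1 member probe was called higher. The call for A_55_P2129047 was lost without array 1 or array 2, with adjusted p of 0.142 and 0.125. Averaging the kept Tlr7 probes, A_55_P2129047 among them, gave a log2 ratio of 0.43 with a limma adjusted p of 0.0390. Whether Tlr7 passed thus depended on the rule for choosing probes. With median centring the brightest Tlr7 probe was called lower instead, at -0.32 with a limma adjusted p of 0.0438. The last Tlr7 probe, A_55_P2129046, annotated to another Tlr7 transcript, was not well above background in either channel on any array and had a log2 ratio of -0.011.

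Tlr9, the receptor for CpG DNA on chromosome 9, had log2 levels of 8.75, 8.96 and 9.11 in Ad-Lkb1, against 8.88, 9.02 and 8.85 in WT. The groups overlapped, and Ad-Lkb1 was the lower sample on arrays 1 and 2 and the higher one on array 3. The Tlr9 log2 ratios of -0.12, -0.062 and 0.27 averaged 0.027 ± 0.21 (SD, n = 3 arrays; limma adjusted p = 0.899), so no difference in Tlr9 beyond the spread between arrays was detected. With median centring the Tlr9 log2 ratio was -0.62 and passed the threshold, in a setting described with Myd88 below.

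Tlr3, a receptor for double-stranded RNA on chromosome 8, had log2 levels of 6.37, 6.18 and 6.14 in Ad-Lkb1, against 6.14, 6.13 and 6.18 in WT. It was well above background in Ad-Lkb1 on 2 of 3 arrays and in WT on none, and the groups overlapped. Neither channel of Tlr3 cleared the background on array 3, so no fold change is given for it either. Tlr8, whose ligand is RNA as well, was not well above background in either channel on any array. Its log2 levels were 6.00, 6.02 and 6.05 in Ad-Lkb1, against 5.93, 5.91 and 5.94 in WT. With both channels of Tlr8 below background, no fold change is given.

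**Figure D2:**
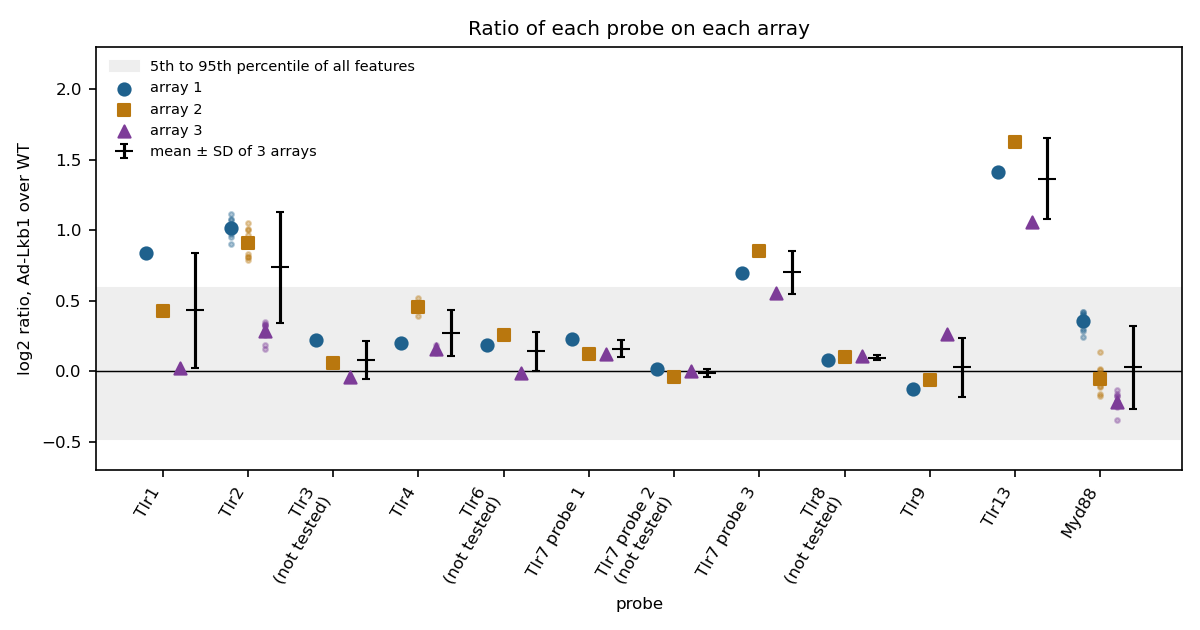
Log2 ratio of Ad-Lkb1 over WT (y axis) of each member probe (x axis) on arrays 1, 2 and 3, with the mean ± SD of the 3 arrays in black and small dots for single spots where a probe had several. The grey band runs from the 5th to the 95th percentile of all features' mean ratios over the 3 arrays, -0.48 to 0.59. It is a range of means and not of single-array ratios, so it gives no percentile for a single symbol. Tlr13 lies above the band on every array, Tlr2 and Tlr7 probe 3 (A_55_P2129047) on arrays 1 and 2, and Tlr1 on array 1.

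Myd88, the adaptor shared by most of these receptors and by the interleukin-1 receptor family, had 10 spots of 1 probe. Its log2 levels were 8.99, 8.80 and 8.76 in Ad-Lkb1, against 8.64, 8.86 and 8.97 in WT. The groups overlapped, with Ad-Lkb1 higher on array 1 and WT higher on arrays 2 and 3. The Myd88 log2 ratios of 0.35, -0.054 and -0.21 averaged 0.028 ± 0.29 (SD, n = 3 arrays; limma adjusted p = 0.915). The SD among the spots of an array was 0.062, 0.093 and 0.059, so the change of sign between array 1 and array 3 was larger than the spot-to-spot error. With median centring in place of the intensity-dependent loess, the Myd88 log2 ratio was -0.62 with a limma adjusted p of 0.0126. That setting moved the median of all features to -0.42 and called 389 features higher and 9708 lower, against 923 higher and 758 lower with loess. Set against that median, Tlr7 stood higher in the same setting, at -0.32, and Tlr9 and Myd88 stood lower.

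**Figure D3:**
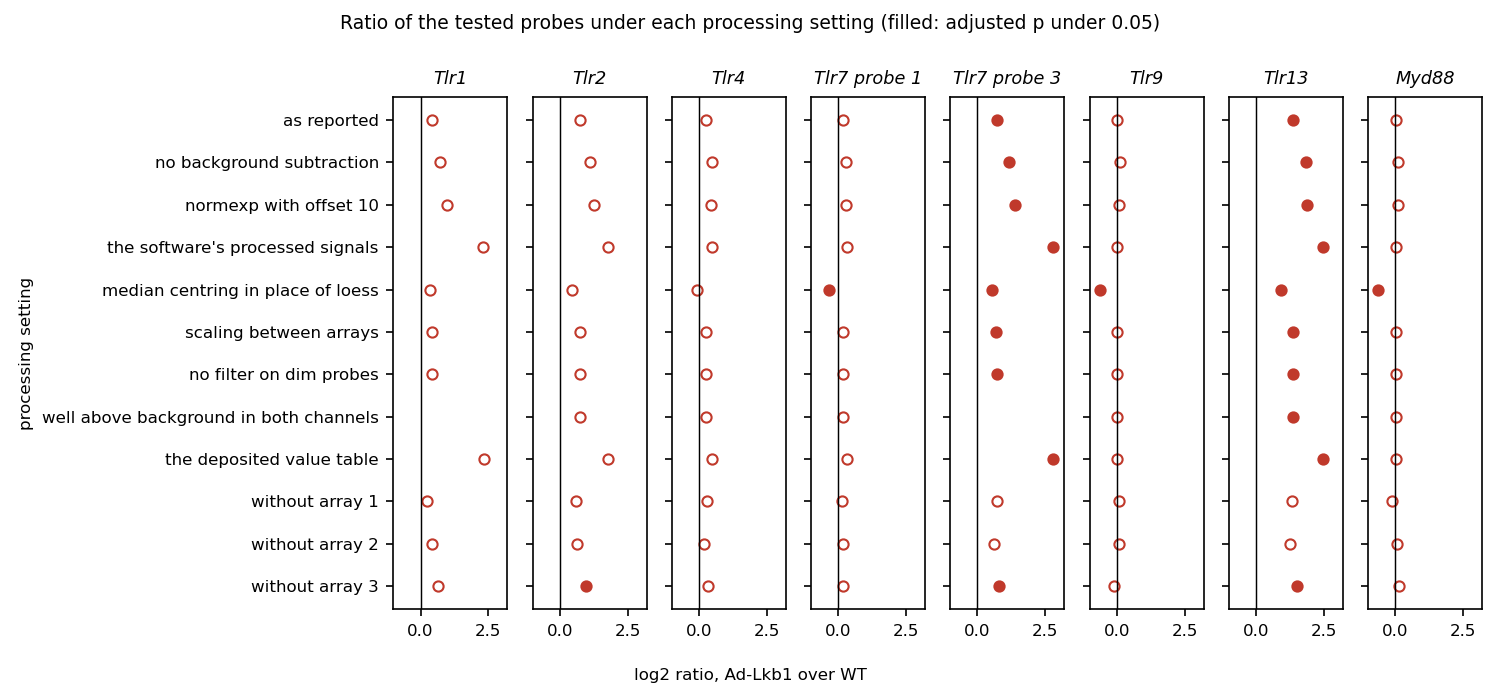
Log2 ratio of Ad-Lkb1 over WT (x axis) of the 8 tested member probes under each processing setting (y axis, with the reported setting on top); filled points have a limma adjusted p under 0.05. Tlr13 stays between 0.93 and 2.48 and is open where array 1 or array 2 is left out, while Tlr9 and Myd88 lie near 0 except at -0.62 with median centring.

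The array of lowest ratio was often array 3. Among the 7 tested member genes, the ratio was lowest on array 3 in 5 (71.4%), beside 33.6% of all features. The WT level was the highest of the 3 WT samples on array 3 in 6 of the 7 genes (85.7%), beside 30.8% of all features, whereas the Ad-Lkb1 level was the lowest on array 3 in 2 of the 7. Among 10 macrophage markers the WT level was highest on array 3 for 8, and the Ad-Lkb1 level was lowest there for 7, beside 37.8% of all features. Leaving out array 3 raised the number of member genes higher in Ad-Lkb1 to 2, Tlr13 and Tlr2. The share of all features called higher rose as well, from 4.77% to 6.85%.

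Some macrophage markers were higher in Ad-Lkb1 as well. Of 11 markers 10 were tested, and 5 were higher and 0 lower in Ad-Lkb1. Among all features, 4.77% were higher and 3.92% lower. The other 5 tested markers did not pass, and the lowest log2 ratio of the list was -0.093. The list's median log2 ratio was 1.68. The list's medians were 1.93, 2.22 and 0.81 on arrays 1, 2 and 3, and its summed linear level ranged between 7329 and 8651 units in Ad-Lkb1, against 2169 and 4017 units in WT. Ms4a7, a macrophage membrane protein, rose by a log2 ratio of 3.04 ± 0.41, the lysosomal Cd68 by 2.24 ± 0.64, and Adgre1, which encodes F4/80, by 1.88 ± 0.59 (SD, n = 3 arrays; limma adjusted p of 0.0105, 0.0229 and 0.0256). Without the filter on dim probes, Cd68 and Adgre1 missed the threshold, at limma adjusted p of 0.0538 and 0.0605. The part of macrophage number in the values of Tlr13, Tlr2 and Tlr7 was not tested.

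The other leukocyte lists differed among themselves. Of 3 tested monocyte markers, 0 passed in either direction (median 0.44), with 1 at an unadjusted limma p under 0.05. Of 6 tested dendritic cell markers, 0 passed (median 0.084), with 1 higher and 1 lower at an unadjusted p under 0.05. The higher one, Itgax, had a log2 ratio of 0.92 ± 0.79 (SD, n = 3 arrays), with 0.019 on array 3. The lower one, Siglech, had a log2 ratio of -0.51 ± 0.42 (SD, n = 3 arrays). Its kept probe had mean log2 levels of 12.66 in Ad-Lkb1 and 13.17 in WT, above those of Cd68 at 10.73 and 8.48. Whether this bright signal comes from dendritic cells was not tested. Of 5 tested T and NK cell markers, 0 passed, with 0 at an unadjusted p under 0.05 and a median of -0.015. The single tested B cell marker of 4 had a log2 ratio of -0.028. Of 6 mast cell markers 3 rose and 1 fell, beside 4.77% higher and 3.92% lower among all features. Of those that rose, Cma1 was well above background in WT on 0 arrays and Cpa3 on 2. Both entered through the Ad-Lkb1 channel alone, which favours a higher call. Of 3 tested neutrophil markers 2 rose, the calprotectin subunits S100a8 and S100a9, by log2 ratios of 2.17 ± 0.85 and 2.39 ± 1.01 (SD, n = 3 arrays; limma adjusted p of 0.0346 and 0.0392). The S100a8 call was lost under 5 of 12 alternatives and the S100a9 call under 6 of 12, among them the software's signals, with limma adjusted p of 0.0588 and 0.0540. The part of these cells in the members' values was not tested.

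The proteins that deliver ligands and receptors were described from a list of 9 genes, 8 of them tested. Lbp, which carries lipopolysaccharide to the Tlr4 complex, rose by a log2 ratio of 0.74 ± 0.21 (SD, n = 3 arrays; limma adjusted p = 0.0307), with 0.91, 0.79 and 0.50 on the arrays. Without the filter on dim probes the Lbp call was lost (limma adjusted p = 0.0571), and with the software's signals its ratio was 1.74. The other 7 did not pass, among them Hsp90b1, a chaperone of Toll-like receptors, at 0.49 ± 0.28. Ly86, the partner of the receptor homologue Cd180, had log2 ratios of 1.69, 2.07 and 0.11, so it was near even on array 3 as Tlr1 was. The list median was 0.20.

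The endosomal proteases that trim nucleic acid receptors had 3 of 5 genes higher and 0 lower in Ad-Lkb1, beside the background of 4.77% higher. Ctss, a lysosomal cysteine protease abundant in antigen-presenting cells, rose by a log2 ratio of 3.50 ± 1.57, Ctsk by 1.35 ± 0.15 and Lgmn, the asparagine endopeptidase, by 0.84 ± 0.11 (SD, n = 3 arrays; limma adjusted p of 0.0423, 0.0111 and 0.0165). Ctss had ratios of 3.84, 4.87 and 1.78 on arrays 1, 2 and 3. The Ctss call was lost with the software's signals (limma adjusted p = 0.0663) and without the filter on dim probes (0.0999), and Lgmn had a ratio of 0.13 with an adjusted p of 0.434 under median centring. These proteases are expressed in macrophages as well, and their list was chosen with earlier results of these data known.

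Downstream of the receptors, the counts of genes that passed stand beside 8.7% of all features called in either direction. Of 3 tested adaptors beside Myd88, 0 passed and 0 had an unadjusted limma p under 0.05. Tirap, the bridge between Myd88 and Tlr2 or Tlr4, had a log2 ratio of -0.11, Ticam1, the adaptor of Tlr3, one of -0.29, and Slc15a4, an endolysosomal transporter needed for Tlr7 and Tlr9 signalling, one of -0.064. Of 17 kinases and ubiquitin ligases, 0 passed in either direction, and the list median was 0.058. At an unadjusted p under 0.05, 3 were higher and 2 lower, beside 5673 of all 19331 features in either direction. The nearest were Map3k7, which encodes TAK1, at -0.47 ± 0.21, the ubiquitin-conjugating Ube2n at 0.49 ± 0.24 and the ligase Peli1 at 0.35 ± 0.13 (SD, n = 3 arrays; limma adjusted p of 0.0652, 0.0710 and 0.0726). With a gene's kept probes averaged, Map3k7 stood at -0.20 and Ube2n at 0.044, so both values rested on the chosen probe.

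Of 8 tested transcription factors, 0 passed, with 4 higher at an unadjusted limma p under 0.05 and a median of 0.35. Among all features, 8.7% were called in either direction, and 5673 of 19331 had an unadjusted p under 0.05. Irf7, which Tlr7 and Tlr9 use to induce interferon, had the largest ratio of them, 3.02, 2.50 and 0.83 on the arrays, a mean of 2.12 ± 1.15 (SD, n = 3 arrays) with a limma adjusted p of 0.0594. Irf7 passed in 4 of the 12 alternatives, namely no background subtraction (limma adjusted p = 0.0480), an added constant of 10 (0.0469), median centring (0.0295) and without array 3 (0.00513). The NF-kappaB subunits Nfkb2 and Rela had log2 ratios of 0.36 ± 0.11 and 0.35 ± 0.13 (SD, n = 3 arrays), and neither passed.

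Among the brakes on the pathway, Irak3 rose. Irak3 encodes IRAK-M, a kinase-like protein that restrains Myd88 signalling in monocytes and macrophages. Its log2 ratios of 1.23, 1.19 and 1.20 were nearly the same on the 3 arrays, a mean of 1.21 ± 0.019 (SD, n = 3 arrays; limma adjusted p = 0.0105), or 2.31-fold. Irak3 was thus as high on array 3 as on the others, where Tlr1 and Tlr2 were not. The other 10 of 11 tested brakes did not pass, with Nfkbia at 0.46 ± 0.27 and Tnfaip3 at 0.52 ± 0.50, and the list median was 0.12.

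Of 15 target genes of the pathway, 10 were tested, with a median of 0.36. Of these, 2 were higher and 0 lower, beside 4.77% higher and 3.92% lower among all features. At an unadjusted limma p under 0.05, 7 were higher, beside 5673 of all 19331 features in either direction. In WT, 3 of the 10 were not well above background on any array, and others, Ccl4 among them, on 1 array alone. Such genes entered through the Ad-Lkb1 channel, which favours a higher call, so these counts are no independent evidence of a rise. The chemokine Ccl4 rose by a log2 ratio of 1.11 ± 0.52 (SD, n = 3 arrays; limma adjusted p = 0.0492), close to the threshold. The Ccl4 call was lost under 6 of 11 alternatives, with a limma adjusted p of 0.109 without the filter on dim probes and of 0.101 with the software's signals, where its ratio was 3.19. The related chemokine Ccl3 was 1.38-fold higher in Ad-Lkb1, with a limma adjusted p of 0.0335. Its WT channel was not well above background on any array, so the size of the change is uncertain. The Ccl3 log2 ratio ranged from 0.39 to 3.06 over the settings. Il1rn, the interleukin-1 receptor antagonist, did not pass.

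Receptors and sensors outside the family were listed for comparison. Of 5 interleukin-1 family receptors 2 were tested, and Il1r1, which signals through Myd88, rose by a log2 ratio of 1.20 ± 0.26 (SD, n = 3 arrays; limma adjusted p = 0.0184), with 0.91, 1.27 and 1.42 on the arrays. Of 9 other nucleic acid and microbial sensors 6 were tested, and 1 was higher and 0 lower, beside 4.77% higher among all features. The list's median was 0.80 over the 3 arrays, and 1.10, 1.06 and -0.18 on arrays 1, 2 and 3. The higher gene was Dhx58, which encodes the RNA sensor LGP2, at 0.85 ± 0.29 (SD, n = 3 arrays; limma adjusted p = 0.0336). The Dhx58 call was lost without the filter on dim probes (limma adjusted p = 0.0674) and with median centring (0.0726). The related RNA sensor Ifih1 had log2 ratios of 1.91, 1.52 and -0.31, again lowest on array 3. Tlr5, the single tested receptor of the 3 other family members on the array, had a log2 ratio of -0.060 and did not pass.

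**Figure D4:**
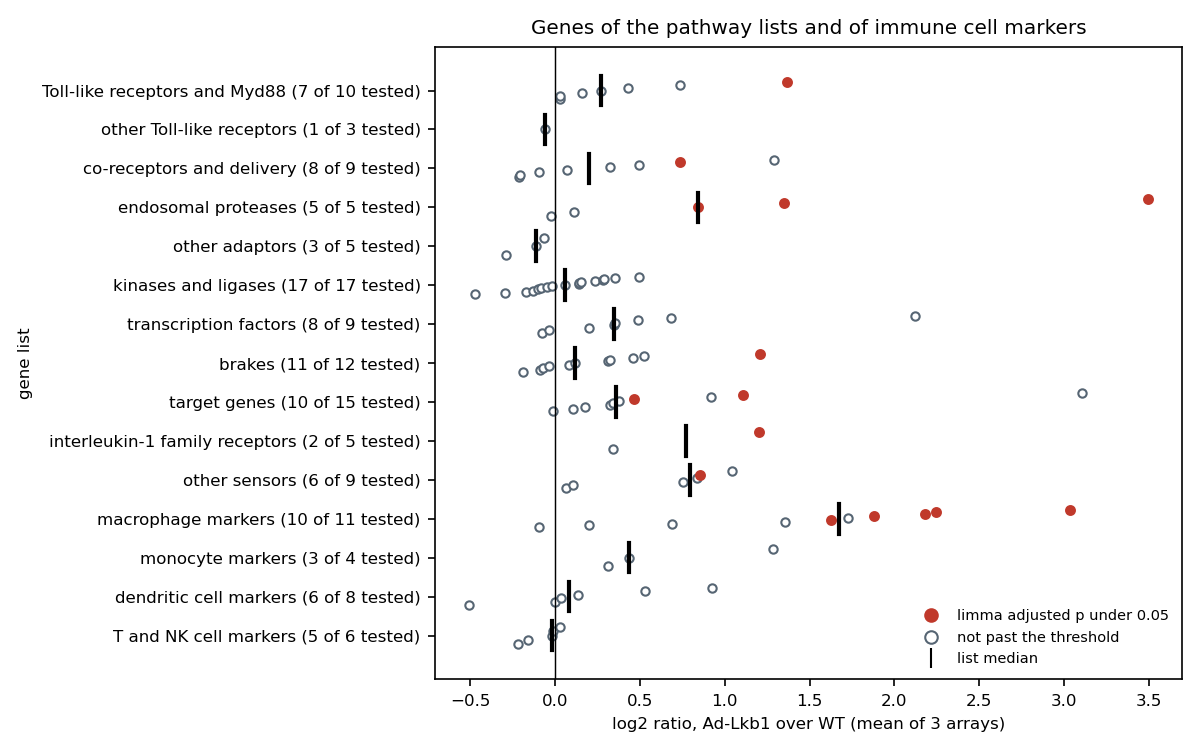
Log2 ratio of Ad-Lkb1 over WT (x axis, mean of 3 arrays) of each tested gene in the family, its pathway lists and the macrophage, monocyte, dendritic and T and NK cell markers (y axis), with red points for a limma adjusted p under 0.05 and a black bar at each list's median. The medians plotted lie between -0.11 for the other adaptors and 1.68 for the macrophage markers, and the family's own is 0.27.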

How the data were processed

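Per the file headers, the deposited scanner files give, for each spot and dye, the median intensity of the spot and of its surroundings, with the software's flags, processed signals and a log10 ratio of Ad-Lkb1 (Cy5) over WT (Cy3). Per the submitters' processing notes the authors used Agilent Feature Extraction 11.5. The authors' deposited value table held the same log10 ratio and was turned to log2 for an alternative.

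With limma 3.58.1 in R 4.3.3, medians were corrected by normexp with an offset of 50, which pulls ratios of dim spots towards 0. Loess followed within arrays, with control spots at weight 0. Outlier spots were left out and spots of a probe averaged. The brightest kept probe stood for a gene, and symbols came from the RefSeq GRCm38.p6 table by accession. Levels are log2 intensities per channel after Aquantile. Setting the WT channel of Ccl3 at the lowest signal called above background, or at its own where higher, left its ratio unchanged. The intercept was tested with eBayes, the pair of samples on an array being its ratio. Precision is limited by 3 arrays. The fit was also run on simulated data, with effects planted in brighter probes and noise independent between probes. That run does not bear on the calls of dim probes. All arrays were on 1 slide.

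Members, lists and tests were chosen with earlier results of these data known. Named genes were the members, Stk11, up to 3 genes of smallest p per list and those past the threshold. Alternatives covered background, normalization, filter, probe choice, the deposited table and each left-out array.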

Additional observations from a re-analysis of the deposited data

How the results depend on the processing

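Tlr13 was positive under all 12 alternatives and passed under 10, the exceptions being the fits without array 1 or array 2, which called 0 features while 3929 and 3563 had an unadjusted limma p under 0.05. Over all features, 1681 were called, against 811 with the software's processed signals, 813 with the deposited table, 1033 without the filter on dim probes, 10097 with median centring and 0 to 2041 when an array was left out. Members called higher numbered 1, against 2 with a gene's kept probes averaged and 0 to 2 when an array was left out; members called lower numbered 0, against 3 with median centring. The members' median of 0.27 was 0.46 with no background subtracted, 0.44 when the offset was 10, 0.47 with the processed signals and with the deposited table, 0.43 with averaged probes and -0.086 with median centring. Member probes called higher numbered 2, against 1 with both channels required above background and 0 to 3 when an array was left out; 3 were lower with median centring. Pathway genes called higher numbered 9, against 5 without the filter and 0 to 26 when an array was left out; those called lower numbered 0, against 25 with median centring and 0 to 1 when an array was left out.

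With median centring the sign turned for Tlr4 (-0.086), Tlr7 (-0.32), Tlr9 (-0.62), Myd88 (-0.62), Hsp90b1 (-0.22), Ube2n (-0.088), Peli1 (-0.26), Nfkb2 (-0.19), Rela (-0.37), Nfkbia (-0.25) and Cidea (-0.12), in a setting whose median over all features was -0.42. With an array left out the sign turned without array 3 for Tlr9 (-0.093 to 0.10 over the 3 arrays left out), Tlr5 (-0.11 to 0.011) and Acta1 (-0.057 to 3.66), without array 1 for Myd88 (-0.13 to 0.15) and without array 2 for Slc15a4 (-0.15 to 0.035). Slc15a4 turned with the smaller offset too (0.0015). The causes were not tested. Signal over background limits Tlr3, Tlr6 and Tlr8, whose values do not show equal levels. The reported test was already paired, since each array's ratio pairs its samples, so no separate paired analysis was run. The slide block was not run because all arrays shared 1 slide.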
